A study of Mus musculus with 6 samples.

Results

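Genes that take up GABA and glycine or break GABA down were compared between A+/G+ and A-/G+ cells of the neonatal mouse cerebellum. The members are 7 genes chosen by their symbols, with earlier results of these data known. The study had already named Slc6a11 for A+/G+ cells from these arrays together with published single-cell data, and it reported the protein in such cells by staining. The members are the GABA transporters Slc6a11 and Slc6a13, the glycine transporters Slc6a9 and Slc6a5, the GABA-degrading enzymes Abat and Aldh5a1, and the amine oxidase Maob. All 7 were found in the annotation of the array, as 7 of 34836 gene names and 9 of 55681 probes. The fractions were sorted by the ACSA-2 antigen, an epitope of the Na/K-ATPase subunit encoded by Atp1b2. The comparison addresses whether their bulk RNA differs in genes that handle inhibitory transmitters. Uptake and protein were not measured on these arrays.

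The data comprise 6 Agilent microarrays with 1 color, 3 for each fraction, every sample holding 50000 cells of wild-type CD1 mice at P1 to P3 according to the labels. The study's methods give a slightly earlier neonatal age and name another strain background for its mice. Cerebella of animals of either sex were pooled and dissociated. A+/G+ cells were taken with beads against ACSA-2, so that rare ACSA-2+ cells without GLAST, the glutamate transporter encoded by Slc1a3, belong to this fraction. A-/G+ cells were taken with beads against GLAST after removal of cells that carried L1CAM, ACSA-2, CD45, PSA-NCAM or Ter119. The labels call the 3 samples of a fraction biological replicates, and p-values measure the spread between these samples. Each fraction was hybridized to a slide of its own, slide 1 for A+/G+ and slide 2 for A-/G+, and the effects of slide and fraction cannot be told apart.

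GABA and glycine are the main inhibitory transmitters of the cerebellum. Transporters of the SLC6 family end their action by carrying them, together with sodium and chloride, into neurons and glia. Within cells, GABA transaminase (ABAT) turns GABA into succinic semialdehyde, which succinic semialdehyde dehydrogenase (ALDH5A1) oxidizes to succinate for the citric acid cycle. In astrocytes GABA can also be formed from putrescine by a route that passes through monoamine oxidase B (MAOB).

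The probes that carry the results are 60 bases long, and the first 30 bases of those that show a difference or that disagree within a gene are given 5′ to 3′ as the array's annotation lists them. Positions are those of the whole probe on mm9. Capitals mark bases that the probes of Slc6a9 share. The probe of Slc6a11 lies at chr6:114199514-114199573 and that of Slc6a13 at chr6:121287597-121287656, both on the + strand. The probes of Slc6a9 lie at chr4:117541842-117541901 (probe 1) and chr4:117541851-117541910 (probe 2), those of Abat at chr16:8621576-8621635 (probe 1) and chr16:8603069-8603128 (probe 2), all on the + strand, and that of Maob at chrX:16286427-16286486 on the - strand.
Slc6a11: acagatccctgatgtctgtcactatagaca
Slc6a13: ggtccacacattgtgacgtgcccgaatcaa
Slc6a9 probe 1: gcccagtgtGTGCAGAACTAGGGTTTTAAA
Slc6a9 probe 2: GTGCAGAACTAGGGTTTTAAAGTCCGTAGG
Abat probe 1: ggtgaccacgtgaacagttccatgaattaa
Abat probe 2: ctcaattttttctgccataaatcgttccat
Maob: cttgcatcttctagttagtctgcttccatt
The probes of Slc6a9 start 9 bases apart and share 51 bases, so that they read nearly the same stretch of RNA and are not independent measurements. The probes of Abat do not overlap, and probe 2 is annotated to a separate cDNA of that gene. The remaining members have 1 probe each, Slc6a5 at chr7:57219046-57219105 on the + strand and Aldh5a1 at chr13:25003412-25003471 on the - strand. Whether a probe lies in a coding exon or a UTR was not analysed here.

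The scanner software counted 26655, 26476 and 26517 probes as well above background on the A+/G+ arrays and 18340, 21416 and 24730 on the A-/G+ arrays. The A-/G+ arrays were also dimmer, with a 75th percentile of intensity between 55.9 and 249.7 compared with 329.3 to 332.1 for A+/G+. Signals are given as quantile normalized log2 values, and a difference is the A+/G+ mean minus the A-/G+ mean. Over these values, A-/G+ replicate 3 was about as close to the A+/G+ arrays (Pearson's r = 0.9732 to 0.9738) as to A-/G+ replicate 2 (r = 0.9741). With A-/G+ replicate 1 it correlated less (r = 0.957). A probe was called at an adjusted p of at most 0.05 in limma over all probes, and the study's additional size limit was medians at least 4-fold apart. Of the genes behind the sorting antigens, Atp1b2 differed by 2.16 (adjusted p = 0.00725, limma), whereas Slc1a3 with -1.19 was not called (adjusted p = 0.0733). All 9 genes of the astroglial marker list were well above background on every array. Of these, Gfap, Gja1 and S100b were called higher in A+/G+ (differences 3.03, 3.03 and 1.33) and Aldh1l1 higher in A-/G+ (-0.64). The median difference of the list was 0.265. The 7 genes of the Bergmann glia list were all called higher in A-/G+. The study had named Gdf10, Wif1, Gria1, Npy and Mybpc1 for A-/G+ from these same arrays, so that their calls are no independent check.

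The transporter genes Slc6a11, Slc6a13 and Slc6a9 and the amine oxidase gene Maob were higher in A+/G+ cells, and no member was called higher in A-/G+ cells. Slc6a11 differed most, by 4.43 on the log2 scale, and Slc6a13 and Slc6a9 differed by 2.75 and 1.96. Maob differed by 2.84, but on 2 of the 3 A-/G+ arrays its signal was not well above background, and the difference was 1.54 with normexp background correction. Abat and Aldh5a1, which encode the consecutive enzymes of GABA breakdown, were not called. In counts, 5 of 9 probes were called higher in A+/G+, compared with 4.65% of all probes, and 3 of 9 also passed the 4-fold limit, compared with 1.53%. These shares include many probes that were not well above background. With dim probes left out, 5 member probes were called higher in A+/G+, and so were 3205 of 25738 probes. None of the 9 probes was called in the other direction by limma, also at an unadjusted p of at most 0.05, or by the methods' t-test. In that direction 4.64% of all probes were called and 0.399% passed the 4-fold limit as well. By gene, 4 of 7 brightest probes were called higher in A+/G+ compared with 5.63% of all gene names. The median difference over the brightest probes of the 7 members was 1.96, compared with -0.05 over all gene names.

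**Figure D1:**
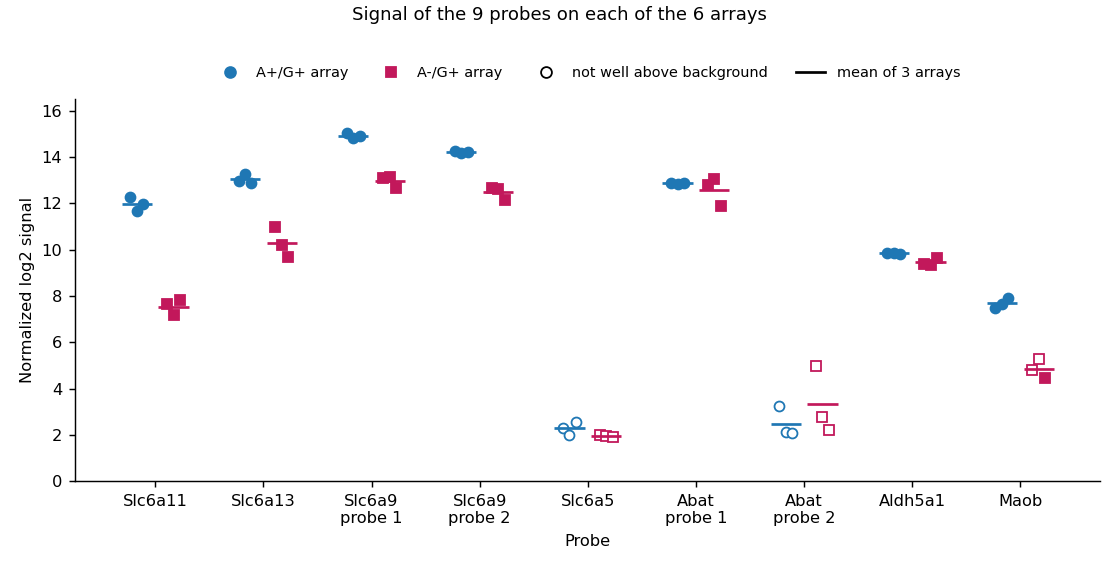
Normalized log2 signal (y axis) of the 9 probes (x axis) on the 3 A+/G+ arrays (circles) and the 3 A-/G+ arrays (squares), with lines at the means and open symbols for signals not well above background. Slc6a11, Slc6a13, both probes of Slc6a9, and Maob show a gap between the fractions, whereas probe 1 of Abat overlaps and Slc6a5 stays at background.

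Slc6a11 encodes GAT-3, the GABA transporter typical of astrocytes. In A+/G+, replicates 1, 2 and 3 gave log2 signals of 12.28, 11.67 and 11.97, and in A-/G+ they gave 7.63, 7.18 and 7.80. The A+/G+ samples were thus far above the A-/G+ samples, and the signal was well above background on all 6 arrays. The means, 11.97 ± 0.31 and 7.54 ± 0.32 (SD, n = 3), differed by 4.43 (standard error 0.234, 95% confidence interval 3.83 to 5.04, adjusted p = 0.00366, limma), with medians 20.2-fold apart. Only 0.219% of all probes had a smaller adjusted p. The exact permutation test of the 6 values gave p = 0.1 (two-sided), the smallest possible p with 3 values per fraction. Leaving out single arrays kept the difference between 4.25 and 4.58, and it was called each time. As these are bulk samples, fewer cells with the transcript and less RNA per cell cannot be told apart.

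Slc6a13 encodes GAT-2, a GABA transporter known from the meninges, liver and kidney. The A+/G+ samples gave log2 signals of 12.96, 13.25 and 12.87, and the A-/G+ samples 10.96, 10.20 and 9.67. The fractions did not overlap, but the A-/G+ arrays were spread over a wider range than the A+/G+ arrays. The means were 13.03 ± 0.20 and 10.28 ± 0.65 (SD, n = 3) and differed by 2.75 (standard error 0.355, 95% confidence interval 1.84 to 3.67, adjusted p = 0.0175, limma), with medians 6.79-fold apart. The difference was not called without A+/G+ replicate 1, 2 or 3 (adjusted p = 0.0718, 0.0803 and 0.0756) or without A-/G+ replicate 2 (adjusted p = 0.0572), and it ranged from 2.45 to 3.09 over all arrays left out.

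Genes of meningeal fibroblasts moved with Slc6a13. Of the 9 genes of this marker list, 3 were called higher in A+/G+, compared with 5.63% of all gene names. All 9 had a higher mean there, with a median difference of 2.12. The summed normalized signal of the list, on the linear scale, was 82330 to 99460 in A+/G+, whereas A-/G+ replicates 1, 2 and 3 had 41260, 28580 and 13470. Among the A-/G+ arrays, the list and Slc6a13 were thus both highest in replicate 1 and lowest in replicate 3, and among the A+/G+ arrays both were highest in replicate 2 and lowest in replicate 3. All 9 markers were well above background on every A+/G+ array, and 8 of them on every A-/G+ array, while Foxd1 failed this flag on each A-/G+ array. The part of these cells in the difference of Slc6a13 was not tested.

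Slc6a9 encodes GlyT1, the glycine transporter found mainly on glia. Probe 1 gave log2 signals of 15.01, 14.83 and 14.91 on the A+/G+ arrays and of 13.09, 13.13 and 12.64 on the A-/G+ arrays. Probe 2 gave 14.27, 14.18 and 14.21 compared with 12.66, 12.62 and 12.13. On both probes the A+/G+ arrays lay close together and above all A-/G+ arrays, of which replicate 3 was the lowest.

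For probe 1 of Slc6a9 the means of 14.92 ± 0.09 and 12.95 ± 0.27 (SD, n = 3) differed by 1.96 (standard error 0.154, 95% confidence interval 1.56 to 2.36, adjusted p = 0.00638, limma). For probe 2 the means of 14.22 ± 0.04 and 12.47 ± 0.29 (SD, n = 3) differed by 1.75 (standard error 0.160, 95% confidence interval 1.34 to 2.16, adjusted p = 0.00849, limma). Both probes were called with any array left out. The medians were 3.54-fold and 3.02-fold apart, which is under the 4-fold limit, although probe 1 passed it without A-/G+ replicate 1 (4.06-fold) or replicate 2 (4.12-fold).

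Slc6a5 encodes GlyT2, the transporter that refills glycine in glycinergic nerve terminals. Log2 signals were 2.30, 2.01 and 2.57 in A+/G+ and 2.00, 1.93 and 1.92 in A-/G+. None of these signals was well above background, so that neither a level nor a direction can be given for this gene.

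Abat encodes GABA transaminase, which starts the breakdown of GABA. Probe 1 gave log2 signals of 12.88, 12.82 and 12.87 on the A+/G+ arrays and of 12.77, 13.07 and 11.90 on the A-/G+ arrays. The fractions overlapped, and the spread of the A-/G+ arrays came mostly from replicate 3. The means of 12.86 ± 0.03 and 12.58 ± 0.61 (SD, n = 3) differed by 0.28, with a 95% confidence interval of -0.55 to 1.10 (adjusted p = 0.626, limma). Without A-/G+ replicate 3 the difference was -0.06 (adjusted p = 0.71), so that no direction is given. Probe 2 of Abat did not rise well above background in either fraction.

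Aldh5a1 encodes succinic semialdehyde dehydrogenase, the next enzyme of the pathway. Its log2 signal was 9.86, 9.87 and 9.80 on the A+/G+ arrays and 9.39, 9.34 and 9.62 on the A-/G+ arrays. The fractions did not overlap, yet they lay close to each other. The means of 9.84 ± 0.04 and 9.45 ± 0.15 (SD, n = 3) differed by 0.39 (standard error 0.0923, 95% confidence interval 0.16 to 0.63), and the adjusted p of 0.0688 from limma was above the limit. With normexp background correction (adjusted p = 0.0423) or without A-/G+ replicate 3 (adjusted p = 0.0158) the gene was called higher in A+/G+. The upper bound of the interval lies below the lower bound of every member called.

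Maob encodes monoamine oxidase B, an enzyme of the outer mitochondrial membrane. Log2 signals of 7.46, 7.67 and 7.92 were measured in A+/G+ and of 4.82, 5.28 and 4.44 in A-/G+. The fractions did not overlap, and 1 of the A-/G+ arrays, replicate 3, was itself well above background. The means of 7.68 ± 0.23 and 4.85 ± 0.42 (SD, n = 3) differed by 2.84 (standard error 0.253, 95% confidence interval 2.18 to 3.49, adjusted p = 0.00817, limma), and the medians were 7.20-fold apart. Using normexp background correction the difference was 1.54 and the medians were 2.97-fold apart, which is under the 4-fold limit, while the probe was still called. Leaving out any array kept the call as well.

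**Figure D2:**
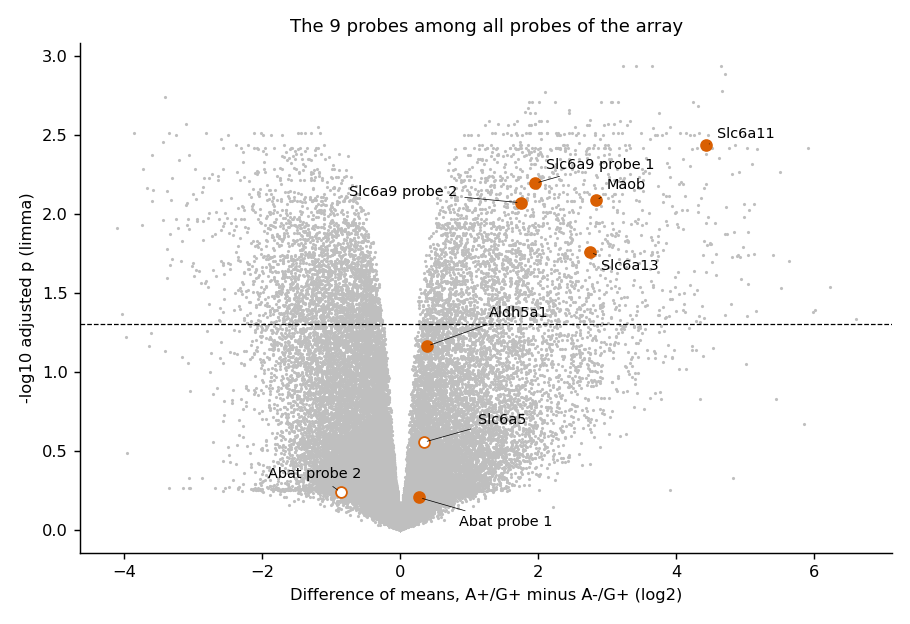
Difference of the means on the log2 scale (x axis, A+/G+ minus A-/G+) against -log10 of the adjusted p from limma (y axis) for all 55681 probes (gray) and the 9 probes of the members (orange, open where no array was well above background), with a dashed line at an adjusted p of 0.05. The 5 called probes lie to the right and above the line, with Slc6a11 at 4.43 farthest from 0, and Aldh5a1 lies just under the line.

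The scaling moved the counts over the whole array, whereas the members' calls stayed the same. With quantile normalization 2589 probes were called in favor of A+/G+ and 2583 in favor of A-/G+, of which 851 and 222 also passed the 4-fold limit. When each array was shifted by its 75th percentile instead, the median difference of all probes moved from -0.04 to -1.02, and the counts were 1227 and 2658, or 604 and 938 with the 4-fold limit. With that shift Slc6a11 differed by 4.41, Maob by 2.73, Slc6a13 by 2.67 and Slc6a9 by 1.75 on probe 1 and 1.58 on probe 2, and all of them remained called.

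**Figure D3:**
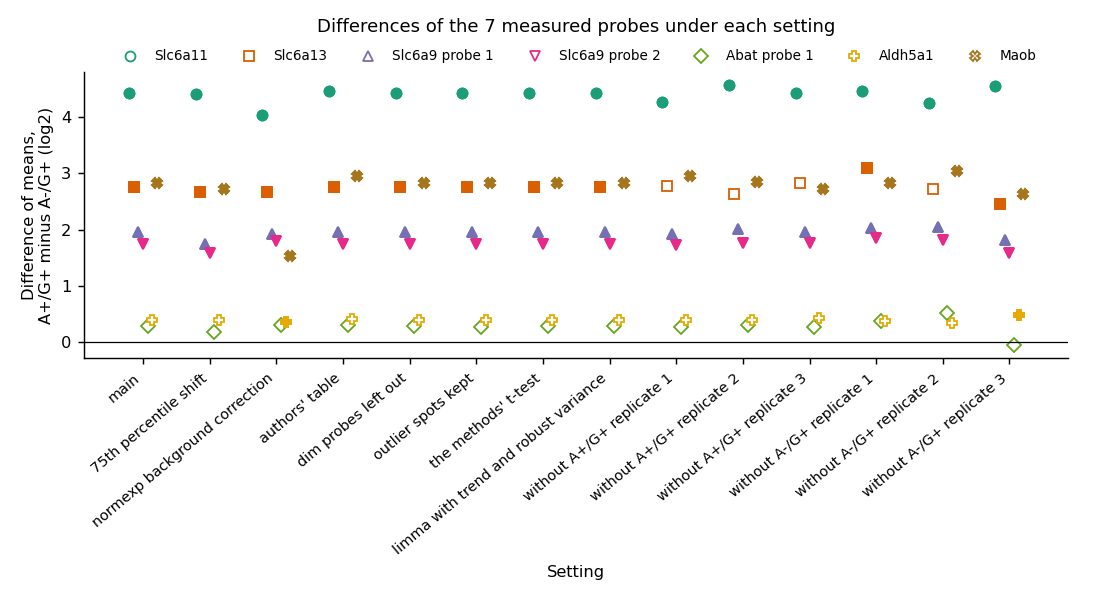
Difference of the means on the log2 scale (y axis) of the 7 probes with signal well above background on at least 1 array, under each setting other than the replicate block (x axis), with filled symbols at an adjusted p of at most 0.05. Slc6a11 stays between 4.04 and 4.58, Maob drops to 1.54 with normexp background correction, and probe 1 of Abat lies on both sides of 0.

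Of 29 further genes of GABA and glycine handling, all on the array, 9 were called higher in A+/G+, compared with 5.63% of all gene names, and 6 of these also passed the 4-fold limit, compared with 1.93% of all gene names. With normexp background correction the medians of Gad1 and Adhfe1, 2 of these 6, were less than 4-fold apart. In the other direction 1 of 29, Gldc, was called, compared with 4.82% of all gene names. The median difference over the 29 genes was 0.32. The count of 9 was 7 with the shift by the 75th percentile and 5 with the methods' t-test, which did not call Slc32a1, Maoa, Aldh1a1 and Glud1. It was 2, 1 and 1 without A+/G+ replicates 1, 2 and 3, and the count of 1 was 0 without any single one of them. Over all probes, calls higher in A+/G+ also fell, from 2589 to 1021, 816 and 846 without these arrays. Those higher in A-/G+ fell from 2583 to 577, 435 and 404. Of the 9 genes, only Adhfe1 was called with any array left out. In A-/G+ its log2 signals of 1.93, 2.09 and 1.88 all failed the background flag. Its calls thus rest in part on signals too dim to measure, and they give no size of the difference.

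Among the further GABA transporters and their relatives, 1 of 3 was called, Slc6a12, which was higher in A+/G+. It encodes BGT-1, which carries betaine and GABA. Its log2 signal was 8.26, 8.71 and 8.09 on the A+/G+ arrays and 5.61, 4.69 and 4.46 on the A-/G+ arrays, of which 1 was well above background. The means differed by 3.43 (standard error 0.361, adjusted p = 0.0114, limma), and the adjusted p was 0.0533, 0.0548 and 0.0534 without A+/G+ replicates 1, 2 and 3. With normexp background correction the difference was 2.11, and the medians were 4.54-fold apart instead of 11.9-fold. The taurine transporter Slc6a6 (difference 0.32, adjusted p = 0.514) and the creatine transporter Slc6a8 (difference -0.04, adjusted p = 0.78) were not called.

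Of the 3 genes of GABA synthesis and vesicle loading, 2 were called higher in A+/G+. Gad1 encodes the glutamate decarboxylase that makes most GABA in neurons. On its probe log2 signals were 8.56, 7.49 and 7.64 on the A+/G+ arrays and 5.43, 4.82 and 5.37 on the A-/G+ arrays, and the means differed by 2.69 (standard error 0.352, adjusted p = 0.0181, limma). Of the A-/G+ arrays of Gad1 only 1 was well above background, and with normexp background correction the difference was 1.62 and the medians were 2.52-fold apart. Slc32a1, which encodes the vesicular transporter for GABA and glycine, gave 10.78, 9.96 and 9.98 compared with 7.05, 7.004 and 8.12, a difference of 2.84 (standard error 0.411, adjusted p = 0.0224, limma). For both genes the A+/G+ arrays were above the A-/G+ arrays, and A+/G+ replicate 1 was the highest.

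Gad1 was not called without A+/G+ replicate 2 or 3 or A-/G+ replicate 2 (adjusted p = 0.0585, 0.0716 and 0.0518), and Slc32a1 was called only without A-/G+ replicate 3 (adjusted p = 0.0605 to 0.0849 for the other arrays left out). Gad2, the second glutamate decarboxylase gene, gave log2 signals of 5.96, 4.84 and 5.17 on the A+/G+ arrays, but no A-/G+ array was well above background. The A-/G+ values, 4.92, 3.28 and 3.95, overlapped with those of A+/G+, and Gad2 was not called (adjusted p = 0.24, limma), so that no fold is given.

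Purkinje cell genes moved with Gad1 and Slc32a1. Of the 8 genes of that marker list, 6 were called higher in A+/G+, compared with 5.63% of all gene names. The list had a median difference of 2.77, and its summed normalized signal was 15970, 6464 and 8880 on the A+/G+ arrays and 2037 to 2665 on the A-/G+ arrays. A+/G+ replicate 1 was thus the highest for the list as for the 3 genes of GABA synthesis and vesicle loading, whereas among the A-/G+ arrays the list was highest in replicate 1 and Slc32a1 in replicate 3. All 8 were well above background on every A+/G+ array, whereas Calb1, Car8 and Foxp2 were not on any A-/G+ array. In the interneuron list, which itself holds Gad1, Gad2 and Slc32a1, 2 of 7 genes were called higher in A+/G+ and 1 of 7, Ptf1a, higher in A-/G+. The summed signal of that list was 1672 to 2706 in A+/G+ and 1652 to 1995 in A-/G+, and Pax2 never rose well above background. These sums join genes that moved in opposite directions, such as Slc32a1 (difference 2.84) and Ptf1a (-2.69). They therefore do not show that the fractions hold interneurons to a like extent. The part of neurons in the differences of Gad1 and Slc32a1 was not tested.

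On the route from putrescine to GABA, 2 of 5 genes were called higher in A+/G+. Maoa, which encodes the second monoamine oxidase, gave log2 signals of 8.62, 8.70 and 8.69 on the A+/G+ arrays and of 7.48, 7.52 and 6.91 on the A-/G+ arrays. It differed by 1.37 (standard error 0.184, adjusted p = 0.0192, limma), less than Maob, and was not called without any single A+/G+ array (adjusted p = 0.0752 to 0.0881). Aldh1a1, an aldehyde dehydrogenase that also makes retinoic acid, gave 10.33, 10.67 and 10.29 compared with 8.45, 7.58 and 6.46, a difference of 2.93 (standard error 0.529, adjusted p = 0.0375, limma). It was not called without any single A+/G+ array or A-/G+ replicate 2 (adjusted p = 0.0967 to 0.142). Sat1, which encodes a polyamine acetyltransferase, differed by 1.10 and was just above the limit (adjusted p = 0.054), and Odc1 and Aldh9a1 differed by -0.20 and -0.19 and were not called.

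Around the GABA shunt, 3 of 7 genes were called higher in A+/G+. Glud1, which encodes glutamate dehydrogenase, gave log2 signals of 13.97, 13.87 and 14.08 on the A+/G+ arrays and of 12.83, 13.05 and 12.48 on the A-/G+ arrays. It differed by 1.18 (standard error 0.165, adjusted p = 0.0206, limma) and a second probe of Glud1 by 1.09 (adjusted p = 0.0212). It was not called without any single A+/G+ array or without A-/G+ replicate 1 (adjusted p = 0.0547 to 0.092), with the shift by the 75th percentile (adjusted p = 0.0501) or with the methods' t-test (adjusted p = 0.0517). Adhfe1, whose product turns gamma-hydroxybutyrate into succinic semialdehyde, gave 6.11, 6.53 and 6.20 on the A+/G+ arrays, but no A-/G+ array was well above background. Against the mean of the dimmest log2 signals still well above background on the A-/G+ arrays, the A+/G+ mean was 2.65-fold higher. The adjusted p of 0.00207 (limma) belongs to the fitted difference, which rests on A-/G+ values not well above background. With normexp background correction the medians were 2.35-fold apart.

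Ogdh, a subunit gene of oxoglutarate dehydrogenase, differed by 0.36 on its brightest probe (adjusted p = 0.0255, limma), which was called among the arrays left out only without A-/G+ replicate 3. It was not called with the shift by the 75th percentile (adjusted p = 0.228) or without dim probes (adjusted p = 0.0553), and its 2 other probes were not called. The subunits of succinyl-CoA ligase, Suclg1, Suclg2 and Sucla2, and the aldehyde reductase gene Akr7a5 were not called, with differences between -0.11 and 0.25. Abat and Aldh5a1 thus had several neighbors in the pathway whose means lay as close together.

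**Figure D4:**
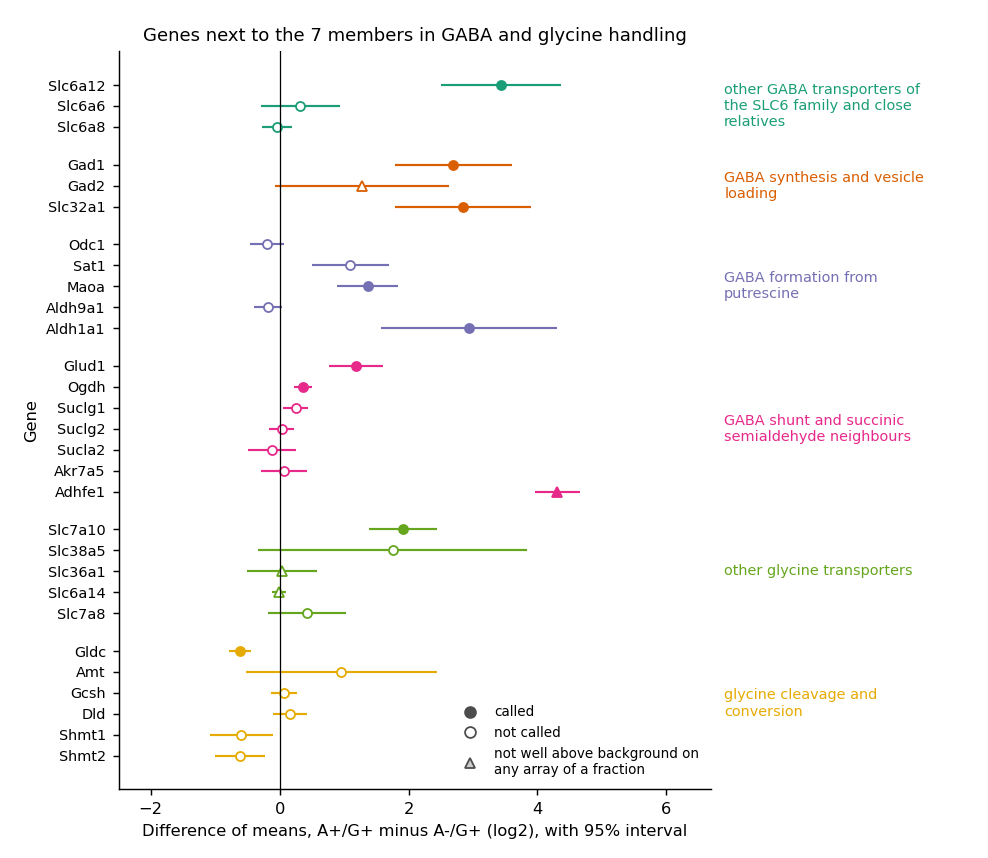
Difference of the means on the log2 scale (x axis, A+/G+ minus A-/G+) with its 95% confidence interval for 29 genes (y axis) in 6 lists, filled where called, with triangles for probes that failed the background flag on all arrays of at least 1 fraction, where the drawn difference is no measured size. The called transporter and synthesis genes lie between 1.92 and 3.43, and Gldc at -0.62 is the only called gene to the left of 0.

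Of 5 other transporters that carry glycine, 1 was called. Slc7a10 encodes Asc-1, a carrier of glycine, D-serine and other small amino acids. Its log2 signal was 12.08, 11.82 and 12.02 on the A+/G+ arrays and 10.47, 9.86 and 9.84 on the A-/G+ arrays, without overlap. The means differed by 1.92 (standard error 0.204, adjusted p = 0.0117, limma), a size similar to that of Slc6a9, although Slc7a10 was not called without any single A+/G+ array (adjusted p = 0.0527 to 0.0626).

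Slc38a5, a glutamine and glycine transporter, gave 11.41, 11.61 and 12.15 on the A+/G+ arrays and 8.78, 9.47 and 11.66 on the A-/G+ arrays, so that A-/G+ replicate 3 lay within the range of A+/G+ (adjusted p = 0.295). Of the 8 genes of the endothelial marker list, 1 was called higher in A+/G+, compared with 5.63% of all gene names, and all had a higher mean there. The summed signal of the list was highest in the same array of each fraction, with 7815, 9186 and 11710 in A+/G+ and 1549, 1842 and 8026 in A-/G+. Each of the 8 genes was well above background on every A+/G+ array and 4 on every A-/G+ array, and the part of endothelial cells was not tested. Slc7a8 differed by 0.42 and was not called (adjusted p = 0.386). Slc36a1 was well above background only in A+/G+, but its mean log2 signals were close (difference 0.04, adjusted p = 0.923, limma). The lowest log2 signal still well above background was 3.52 to 3.61 on the A+/G+ arrays but 4.03 to 5.64 on the A-/G+ arrays. For this gene the flag alone thus shows no difference between the fractions. Slc6a14 was well above background in neither fraction.

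In glycine cleavage and conversion, 1 of 6 genes was called, and it was the only pathway gene higher in A-/G+. Gldc encodes the decarboxylase that starts glycine cleavage. The probe gave log2 signals of 10.10, 10.22 and 10.19 on the A+/G+ arrays and of 10.80, 10.85 and 10.71 on the A-/G+ arrays, without overlap. The means differed by -0.62 (standard error 0.0666, adjusted p = 0.012, limma), and the gene was not called without any single A+/G+ array (adjusted p = 0.0501 to 0.0612) or with the shift by the 75th percentile (adjusted p = 0.0505).

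The serine hydroxymethyltransferase genes Shmt1 and Shmt2, which interconvert serine and glycine, had differences of -0.60 and -0.62 and were not called (adjusted p = 0.143 and 0.076). The remaining genes of the glycine cleavage system, Amt, Gcsh and Dld, were not called either (differences 0.96, 0.07 and 0.16). The glycine transporters called were higher in A+/G+ and the decarboxylase Gldc was higher in A-/G+. The calls of Gldc and Slc7a10 were lost when any single A+/G+ array was left out. The 1 of 29 pathway genes called higher in A-/G+ compares with 4.82% of all gene names.

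For the 5 members with a brightest probe well above background on all arrays, the genes most like them were sought among 13692 gene names by Pearson's r over the 6 arrays. Because the arrays fall into the fractions, these values mostly follow the gap between A+/G+ and A-/G+ and are given as a description. The profile of Slc6a11 was closest to Gatm, which encodes an enzyme of creatine synthesis (r = 0.9999), Dock1 (r = 0.9987) and Rgcc (r = 0.9983). That of Slc6a13 was closest to Itga11, a collagen-binding integrin gene (r = 0.9991), the collagen gene Col6a3 (r = 0.9991) and Rnf213 (r = 0.9984).

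The profile of Slc6a9 was closest to that of Atp1b2, which encodes the protein that carries ACSA-2 (r = 0.9995), followed by Gm13889 (r = 0.9994) and Ppp2r5a (r = 0.9993). For Abat, which did not separate the fractions, the closest were Prosc (r = 0.9966), AK134484 (r = 0.9947) and Eif5 (r = 0.9943), none of them called. For Aldh5a1 they were Tln1 (r = 0.9976), the neuregulin receptor gene Erbb4 (r = 0.9972) and Snx18 (r = 0.9969).

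Several marker lists of cell types that the samples could hold differed between the fractions along with the members. Genes of ependymal and motile cilia (7 of 8 called higher in A+/G+, median difference 3.47), pericytes and smooth muscle (3 of 6, median 2.79) and the oligodendrocyte lineage (3 of 7, with 1 of 7 higher in A-/G+, median 1.16) were higher in A+/G+ by count. The lists of choroid plexus (median -0.34), microglia (median -0.15) and granule neurons (median 0.07) had smaller medians, compared with -0.05 over all gene names. In these lists Tmem119 of microglia was called higher in A+/G+ and Pax6 of granule neurons higher in A-/G+. No choroid plexus gene was called. The part of these cells in the differences of the members was not tested.

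**Figure D5:**
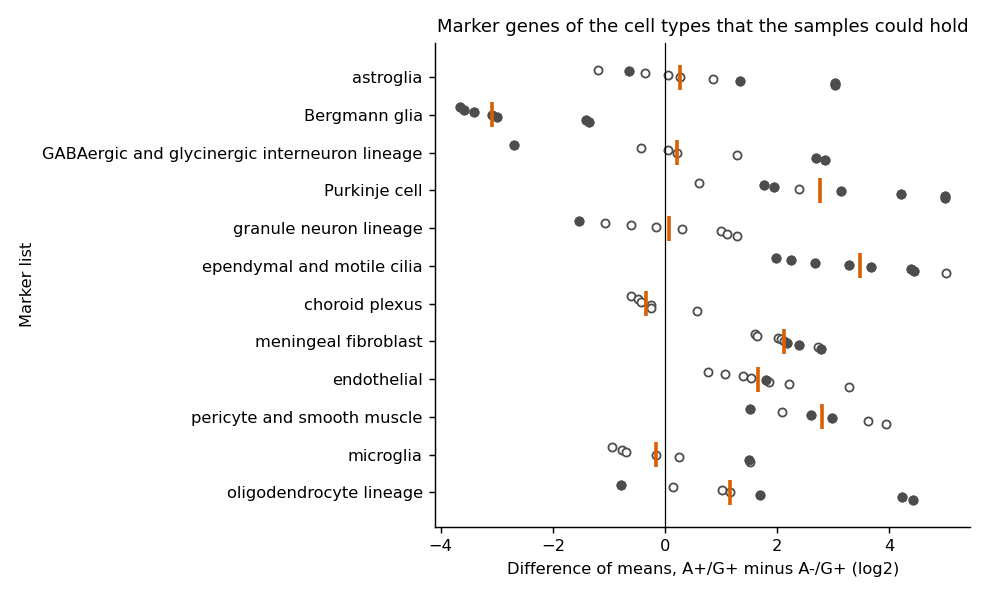
Difference of the means on the log2 scale (x axis, A+/G+ minus A-/G+) of the genes of 12 marker lists (y axis), 1 point per gene, filled where called, with a bar at the median of each list. The lists of ependymal and motile cilia (3.47), pericytes (2.79), Purkinje cells (2.77) and meningeal fibroblasts (2.12) lie to the right, and that of Bergmann glia (-3.08) lies to the left.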

How the data were processed

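Sorted A+/G+ and A-/G+ cells were measured on 6 Agilent mouse arrays. The authors deposited, per the file headers, spot intensity values from Feature Extraction 10.7.3.1 after background correction, and a quantile normalized table of log2 values, used as an alternative. The intensity values were taken to log2 without control and outlier spots, quantile normalized, averaged per probe and compared with limma 3.58.1 in R 4.3.3 (two-sided, Benjamini-Hochberg over all probes, no covariate). The methods' test was Student's. No filter on dim probes was applied, and the brightest probe stands for a pathway or marker gene. Named are all members, called pathway genes, Slc6a12, Gad1, Gad2, Slc32a1, the sorting antigens, 3 similar genes per member and, chosen after their values were seen, further list genes. Members and lists were chosen with earlier results of these data known, and some listed genes are not reported here. The array's annotation supplied gene names and mm9 positions. Alternatives were another scaling, background correction, table, dim probe filter, outlier handling, probe choice, test, variance model, a replicate block and each array left out. The fit was tested on simulated data. The number of arrays limits the precision.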

Additional observations from a re-analysis of the deposited data

How the results depend on the processing

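The number of member probes called higher in A+/G+ was 4 to 6 under every setting except the fit with the replicate number as a block, in which it was 0, and the number past the 4-fold limit was 2 to 4, with 0 under the block. With that block limma called 0 of 55681 probes (lowest adjusted p = 0.063), with 11671 at an unadjusted p of at most 0.05, and 0 pathway genes in either direction. Samples with the same number deviated from their fraction means with correlations of 0.196, 0.113 and -0.114, and not every sample correlated best with its own number, so that the numbers were not taken as pairs. Pathway genes called higher in A+/G+ numbered 5 with the methods' t-test and 1 to 10 with each array left out. Those higher in A-/G+ numbered 0 with the shift by the 75th percentile, 2 without dim probes and 0 to 1 with each array left out. The difference of probe 1 of Abat ranged from -0.064 to 0.52 with each array left out, and it reversed without A-/G+ replicate 3 (-0.064). The cause was not tested. Over all probes, 816 to 4437 were called higher in A+/G+ and 404 to 4578 higher in A-/G+ with each array left out, 1351 and 1197 with the methods' t-test, and 234 and 48 passed the 4-fold limit with normexp background correction. Of 280 settings for single genes, 211 kept direction and side of the limit, 61 lost the call, 7 gained it and 1 reversed. The slide could not be fitted as a block, as no slide held both fractions. Slc6a5, probe 2 of Abat and, on most A-/G+ arrays, Maob are limited by signal over background.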
